A study of Mus musculus with 20 samples.

Results

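Blood of unirradiated mice labelled Il10-/- was compared with blood of unirradiated mice labelled WT, using 10 of the 20 arrays of the series, 5 in each group, chosen by their titles. The WT mice were C57BL/6, and the Il10-/- mice carried the tm1Cgn allele, which disrupts the gene of interleukin 10 in all cells, on the same background. All were male littermates from heterozygous parents, aged 8 to 10 weeks. They received sham irradiation (0 Gy), were bled by cardiac puncture 24 h later, and globin transcripts were depleted from the whole-blood RNA.

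Interleukin 10 is a cytokine of T cells and macrophages that limits inflammation. It acts through the Il10ra and Il10rb receptor chains and the transcription factor Stat3, and mice without it are known for chronic inflammation of the gut. In such inflammation the bone marrow can release more neutrophils, including young ones that still carry transcripts of the granule proteins made during their maturation, and whole-blood RNA records these cells beside lymphocytes, platelets and reticulocytes. In bulk blood, fewer cells of a type and less RNA per cell cannot be told apart.

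Levels are log2 processed intensities, scaled between arrays, and are compared for one probe between groups, never between probes. Differences are Il10-/- minus WT on the same log2 scale, so that 1 is a 2-fold difference, and the values of a group are always listed from replicate 1 to replicate 5. The probe of Il10 lies on mm9 chr1:132920943-132921002. Its levels were 1.74, 1.5, 1.81, 2.65 and 3.69 on the arrays labelled WT, against 6.18, 6.38, 6.13, 5.96 and 6.63 on those labelled Il10-/-. It was well above background on none of the 5 WT arrays and on all 5 Il10-/- arrays, which places the Il10-/- group at least 5.75-fold higher. The probe did not pass the background filter and was not tested. The sources used here do not place it inside the altered part of the gene, so it checks no genotype and every direction below rests on the labels.

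Some arrays stood apart. Between 49.4% and 57.8% of the spots were well above background on the Il10-/- arrays and between 29.9% and 54.7% on the WT arrays (exact permutation test of 5 arrays against 5, 2-sided, p = 0.0556, where 0.00794 is the smallest p possible). WT replicates 4 and 5 were lowest, with 38.5% and 29.9%, and the SD between repeated spots was 0.336 on WT replicate 5 against 0.0865 to 0.143 on the other 9 arrays. Transcripts of hepatocytes were high on 2 arrays: the mean level of 35 hepatocyte genes was 11.30 and 12.21 on Il10-/- replicates 3 and 4, against 3.93 to 5.32 on the other 8 arrays. Replicates 1 and 2 were nearly the same in both groups. Over 5648 bright probes the robust SD of their difference was 0.167 in WT and 0.131 in Il10-/-, where repeated spots alone give 0.139 and 0.123, and the 18 other pairs within a group ranged from 0.237 to 1.12. With the difference between their slides removed it was 0.163, less than the 0.186 that repeated spots give. They are listed as separate mice and enter the test as such, so p-values may rest on a smaller number of independent samples, and the count of calls is also given with replicates 1 and 2 averaged into 1 sample.

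Of 16419 features of 14185 genes tested, 77 features of 75 genes passed limma's test, which asked for an unadjusted p below 0.001 and a false discovery rate (Benjamini-Hochberg) under 10%, and these are termed called. Higher in mice labelled Il10-/- were 71 features (0.432% of those tested) of 69 genes, and lower were 6 (0.0365%). The median difference over all tested features was -0.02. WT and Il10-/- arrays were wholly apart for 76 of these 77, where 4.67% of all tested features lay wholly above and 1.76% wholly below. The features were called from the same arrays. Each of the 5 slides holds 1 array of either group, and for 76 of 77 all 5 gave the called direction. Groups that lie apart fix this outcome, so it adds no separate support. With the slide as a replicate block, 31 features of 30 genes were called, all higher, and 28 of the 77 were among them. With replicates 1 and 2 averaged into 1 sample, only Wfdc21 was called (difference 3.87, limma adjusted p = 0.0287). In that fit all 77 had unadjusted limma p of at most 0.00474. All 77 kept their direction, which averaging cannot turn where the groups lie apart. Without Il10-/- replicates 3 and 4, 286 genes were called, with 55 of the 77 features among them, and without WT replicates 4 and 5, 36 genes were called, with 20 of the 77 among them. Adjusted p-values below are those of the 10-array fit by limma.

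**Figure D1:**
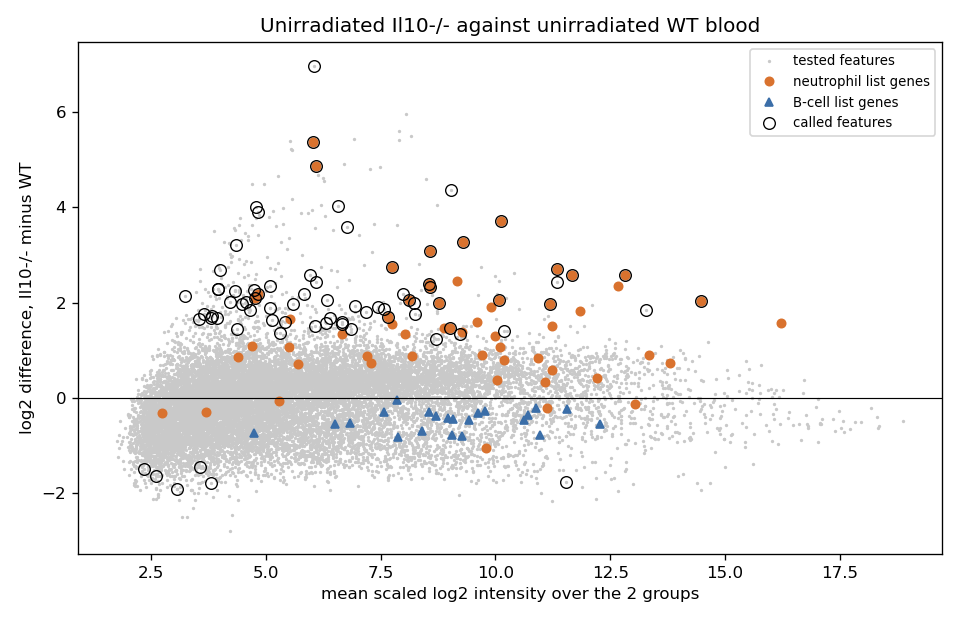
Difference between the group means (vertical, log2, Il10-/- minus WT) against the mean level over the groups (horizontal, scaled log2 intensity) for the 16419 tested features. Genes of the neutrophil lists are orange, B-cell genes blue triangles, and the 77 called features ringed: most rings lie above 0, and 6 lie below.

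The largest named group among the called genes was that of neutrophils: 20 of the 69 genes that rose belong to the lists of neutrophil granule genes or mature neutrophil genes. Ltf encodes lactoferrin, the iron-binding protein of the secondary granules. Its levels were 2.93, 3.79, 2.22, 5.22 and 2.54 in WT and 9.47, 9.60, 6.75, 6.95 and 10.80 in Il10-/-. The WT arrays were low, with 2 of 5 well above background, the Il10-/- arrays were all higher, and Il10-/- replicates 1, 2 and 5 were higher than replicates 3 and 4. The difference was 5.37 ± 0.80 (SE, adjusted p = 0.0426). Ngp, neutrophilic granule protein, had levels of 4.18, 3.66, 2.46, 4.63 and 3.39 in WT and 9.18, 9.47, 6.88, 6.49 and 10.64 in Il10-/-. The order of the arrays was similar, without overlap of the groups, and the difference was 4.87 ± 0.74 (SE, adjusted p = 0.0428). Camp, the precursor of the antimicrobial peptide cathelicidin, had levels of 7.10, 7.07, 7.30, 8.90 and 7.87 in WT and 11.71, 11.46, 9.31, 9.44 and 12.68 in Il10-/-. Here WT replicate 4 came near to Il10-/- replicates 3 and 4, and the difference was 3.27 ± 0.64 (SE, adjusted p = 0.0837). A second probe of Camp gave 2.32, was not called, and its groups overlapped.

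Chil1, a chitinase-like protein of neutrophil granules and macrophages, had levels of 7.11, 7.44, 6.81, 6.35 and 7.41 in WT and 10.20, 10.24, 9.54, 9.39 and 11.18 in Il10-/-, a difference of 3.08 ± 0.37 (SE, adjusted p = 0.0113). It was called with the slide as a block and whichever single array was left out. Lcn2, lipocalin 2, which withholds iron-carrying siderophores from bacteria, had levels of 10.33, 10.41, 10.22, 10.18 and 10.79 in WT and 13.27, 13.20, 11.96, 11.98 and 14.40 in Il10-/-. The WT arrays lay within a narrow range, Il10-/- replicate 5 was the highest, and the difference was 2.57 ± 0.44 (SE, adjusted p = 0.0561). Without Il10-/- replicates 3 and 4 the differences of Ltf, Ngp, Camp and Lcn2 were 6.62, 6.10, 4.30 and 3.24. Without WT replicates 4 and 5 they were 5.73, 5.10, 3.76 and 2.64, with limma adjusted p of 0.0968, 0.118, 0.138 and 0.138. Ceacam10, a cell adhesion protein of the carcinoembryonic antigen family, was called with a difference of 2.09 (adjusted p = 0.0879). 

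A listed gene is termed measured where it passed the background filter, and tested where it also varied enough between arrays, since no other gene could be called. Some genes are in more than 1 list, so calls in different lists are not always separate genes. Of 27 granule genes of neutrophil precursors listed, 23 were measured, all of them tested, and 6 were called, all higher, where 0.482% of all 13478 genes tested with 1 probe each were called higher and 0.0445% lower. For 9 of the 23 the Il10-/- arrays lay wholly above the WT arrays, where 4.85% of all these genes did. The median difference was 1.40, against 0.07 over all 18802 genes above background, of which 54.6% had positive differences. Within slides 1 to 5 the median of the list was 1.30, 1.30, 0.48, 1.58 and 2.18. Among those not called, the collagenase Mmp8 had a difference of 2.46, the gelatinase Mmp9 1.55 and the chitinase-like Chil3 2.35. The proteins of the primary granules, which are made earlier in maturation, had smaller or opposite differences, looked up after the values were seen: 0.85 for myeloperoxidase (Mpo), 1.09 for proteinase 3 (Prtn3), -0.06 for cathepsin G (Ctsg) and -1.04 for neutrophil elastase (Elane). None of these 4 was called, and their difference from the other granule genes was not tested.

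The factor C/EBP epsilon is known to be needed for secondary granule genes, so promoters of called genes were searched for TTGCNNAA, a form of the C/EBP site, on both strands, in RefSeq windows of 300 bases that end 50 bases into the transcript (build GRCm38.p6). Of the 20 called neutrophil genes 19 had a promoter in the table, and 7 of these 19 (36.8%) held the motif. So did 15 of 53 called higher genes with a promoter (28.3%), 11.6% of all tested genes and 12.2% of all genes in the table. Among the genes with the motif, Stfa1 and Cstdc5 are close copies. A site of the factor PU.1, GAGGAAGT, was searched in the same way. It was held by 1 of the 19 (5.26%), 3 of the 53 (5.66%) and 3.8% of all tested genes. Differences between these shares were not tested. The upstream 250 bases are shown for the granule genes Ltf and Ngp, whose probes gave the largest differences of the list, and for the neighbouring Stfa1 and Cstdc5 described below. Each is written 5′ to 3′ on the strand of its gene, with every match in capitals:
Ltf, chr9:111019042-111019291, strand +: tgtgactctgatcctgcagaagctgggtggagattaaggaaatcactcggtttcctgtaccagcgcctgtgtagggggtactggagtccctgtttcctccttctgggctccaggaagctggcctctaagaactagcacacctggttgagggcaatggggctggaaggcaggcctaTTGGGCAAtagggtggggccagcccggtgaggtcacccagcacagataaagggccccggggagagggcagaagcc
Ngp, chr9:110419558-110419807, strand +: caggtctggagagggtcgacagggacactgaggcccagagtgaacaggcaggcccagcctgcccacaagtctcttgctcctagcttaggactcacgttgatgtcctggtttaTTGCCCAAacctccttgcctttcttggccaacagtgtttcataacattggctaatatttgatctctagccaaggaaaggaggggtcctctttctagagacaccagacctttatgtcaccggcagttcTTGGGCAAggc
Stfa1, chr16:36276898-36277147, strand +: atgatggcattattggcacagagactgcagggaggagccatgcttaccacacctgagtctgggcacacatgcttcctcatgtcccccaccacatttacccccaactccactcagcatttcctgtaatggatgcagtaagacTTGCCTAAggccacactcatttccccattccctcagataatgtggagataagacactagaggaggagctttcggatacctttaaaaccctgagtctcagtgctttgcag
Cstdc5, chr16:36367571-36367820, strand -: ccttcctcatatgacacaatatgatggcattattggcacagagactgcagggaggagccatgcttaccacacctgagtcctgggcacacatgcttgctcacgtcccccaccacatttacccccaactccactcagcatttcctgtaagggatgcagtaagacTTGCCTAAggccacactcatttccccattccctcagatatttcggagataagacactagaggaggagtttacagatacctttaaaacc
Counted from the start of the transcript, Ltf held 1 match at -75 and Ngp 2 at -138 and -11. Stfa1 and Cstdc5 held the same letters, TTGCCTAA, at -109 and -88. A match is a description of the sequence and not a bound site.

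**Figure D2:**
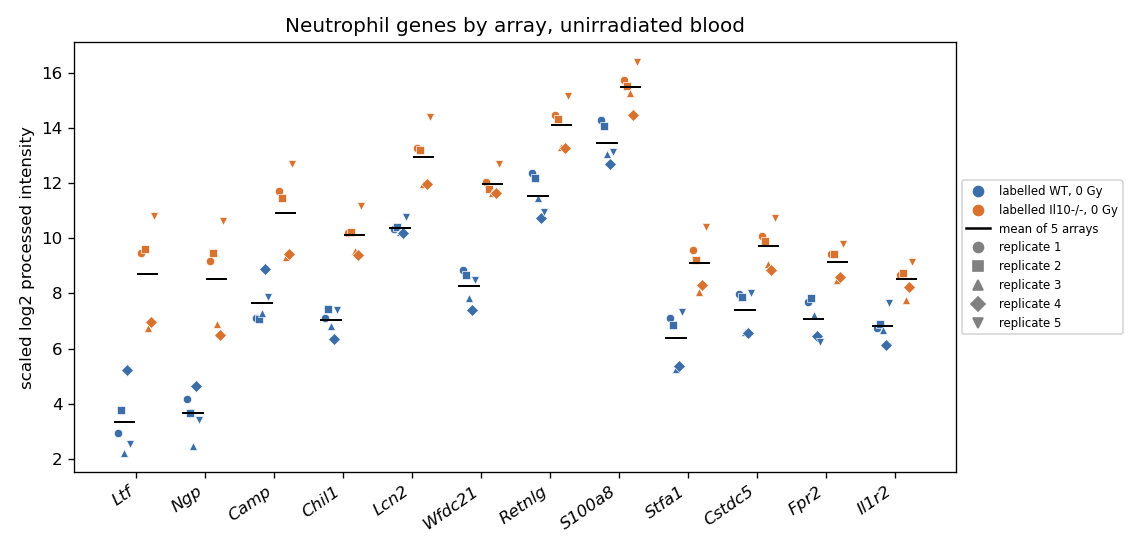
Scaled log2 intensity (vertical) of 12 neutrophil genes on the 5 WT (blue) and 5 Il10-/- (orange) arrays, with the marker shape giving the replicate and a bar the mean of 5 arrays. Il10-/- replicates 3 and 4 (triangle and diamond) sit below replicates 1, 2 and 5 for Ltf, Ngp and Camp, and close to them for Wfdc21.

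The median difference of mature neutrophil genes was above 0 on all 5 slides. Wfdc21, a secreted protein with a whey acidic protein domain, had the smallest p of all features, with levels of 8.84, 8.68, 7.82, 7.41 and 8.51 in WT and 12.06, 11.79, 11.66, 11.66 and 12.72 in Il10-/-. The lowest Il10-/- array lay far above the highest WT array, and the difference was 3.72 ± 0.35 (SE, adjusted p = 0.00197). Retnlg, a resistin-like secreted protein of neutrophils, had levels of 12.37, 12.19, 11.46, 10.74 and 10.94 in WT and 14.47, 14.34, 13.33, 13.27 and 15.16 in Il10-/-, a difference of 2.57 ± 0.45 (SE, adjusted p = 0.0609). S100a8, a subunit of the calcium-binding protein calprotectin, had levels of 14.29, 14.07, 13.08, 12.70 and 13.13 in WT and 15.76, 15.55, 15.27, 14.48 and 16.41 in Il10-/-, with a difference of 2.04 ± 0.41 (SE, adjusted p = 0.0889). WT replicate 1 came close to Il10-/- replicate 4, and the groups did not overlap. S100a9, its partner, did not pass the test at 1.57 (adjusted p = 0.14). Of 12 measured S100 genes 9 were tested, and S100a8 was the only one called.

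Of 37 mature neutrophil genes listed, 34 were measured and tested, 14 were called, all higher, and for 24 the groups lay wholly apart. Their median difference was 1.52, and 1.37, 1.35, 1.22, 1.97 and 1.94 within slides 1 to 5. Receptors among the called members were Fpr2, which senses formylated bacterial peptides (2.06, adjusted p = 0.0782), and Il1r2, a decoy receptor that binds interleukin 1 without signalling (1.69, adjusted p = 0.0894). Enzymes among them were Hdc, which makes histamine (1.47, adjusted p = 0.0663), the aspartic protease Asprv1 (2.40, adjusted p = 0.0837) and the metalloreductase Steap4 (2.19, adjusted p = 0.0426). The chemokine receptor Cxcr2, through which neutrophils follow ligands such as Cxcl2, had levels of 9.64, 9.34, 8.92, 8.06 and 7.99 in WT and 10.20, 10.04, 9.90, 10.46 and 11.34 in Il10-/-, wholly apart, but was not called (adjusted p = 0.153). Lrg1, a secreted glycoprotein, was called at 1.98 (adjusted p = 0.0609). Csf3r, the receptor of granulocyte colony-stimulating factor, had a difference of -0.13. Ly6g has no probe by that name on this array.

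The stefins, inhibitors of cysteine proteases encoded side by side on chromosome 16, were called for 4 genes. Stfa1 had levels of 7.09, 6.85, 5.24, 5.37 and 7.31 in WT and 9.59, 9.21, 8.07, 8.31 and 10.40 in Il10-/-, a difference of 2.75 ± 0.54 (SE, adjusted p = 0.0837). Replicates 3 and 4 were the lowest in either group, and each Il10-/- array was higher than the WT array of its slide. Without Il10-/- replicates 3 and 4 the difference was 3.36, and without WT replicates 4 and 5 it was 2.72 (limma adjusted p = 0.177). The differences of Cstdc5 (BC100530 on the array), Stfa2 and Cstdc4 (Gm5483 on the array) were 2.32, 2.06 and 1.99, with adjusted p of 0.0782, 0.0916 and 0.0894. Stfa2l1 had 1.92 without passing the test, and Stfa3 went the other way with -0.94. These genes are close copies, and a probe may pick up a neighbour's transcript. Of 21 stefins and proteins with whey acidic protein domains listed, 17 were measured and tested, and 5 were called, all higher. The median difference of the 17 was 0.74, or 0.33 without WT replicates 4 and 5. Wfdc21 is among these 5 and also among the called mature neutrophil genes.

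Among monocyte genes and myeloid receptors the calls were fewer. Cd14, the co-receptor of lipopolysaccharide on monocytes and neutrophils, had levels of 6.43, 6.67, 6.65, 5.44 and 4.70 in WT and 7.96, 8.10, 7.67, 7.68 and 8.10 in Il10-/-. WT replicates 4 and 5 were low, the groups did not overlap, and the difference was 1.92 ± 0.39 (SE, adjusted p = 0.0889). Without WT replicates 4 and 5 it was 1.32 (limma adjusted p = 0.0741). It was the only called gene of 23 tested monocyte genes. The median over the 25 measured ones was 0.18, but -0.22, -0.13, -0.20, 1.29 and 0.07 within slides 1 to 5, -0.10 to 0.34 with 1 array left out and -0.10 without WT replicates 4 and 5, so that it has no settled sign. The defining monocyte genes gave 0.04 for the growth factor receptor Csf1r, which did not pass the variation filter, 0.85 for Ccr2 and 0.32 for Cx3cr1, and their groups overlapped. Of 23 measured CD300, TREM and paired receptor genes 20 were tested and none was called, though 18 had positive differences. For 8 of the 20 the Il10-/- arrays lay wholly above, where 4.85% of all tested genes did. Among these 8 were Trem1, an amplifier of inflammatory signals (1.35, adjusted p = 0.113), and Clec4e, a receptor of mycobacterial glycolipid (1.35, adjusted p = 0.135). Their median was 0.80, with 0.34, 0.29, 0.27, 1.87 and 0.96 within slides 1 to 5, and 0.46 without WT replicates 4 and 5. None of 12 tested NADPH oxidase genes (median 0.51) or 15 tested Fc and complement receptor genes was called. The median of the second list was 0.24, but -0.20 and -0.07 on slides 1 and 2, 0.10 to 0.37 with 1 array left out and -0.01 without WT replicates 4 and 5. The proton channel Hvcn1 and the peroxiredoxin Prdx5 had -1.09 and 0.89, the complement C5a receptor C5ar1 had 1.48, and the IgG receptor Fcgr4 had 1.34. Among 17 tested genes of formyl peptide, leukotriene and lipid mediators Fpr2 alone was called, with a median of 0.77.

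Receptors of the interleukin 1 and 18 family held 3 called genes. Il18r1 is the chain that binds interleukin 18, a driver of interferon-gamma in T and NK cells. Its levels were 6.87, 6.81, 6.88, 6.48 and 6.10 in WT and 8.60, 8.50, 7.95, 8.57 and 8.88 in Il10-/-, with little spread in either group, and the difference was 1.87 ± 0.28 (SE, adjusted p = 0.0426). A second, dimmer probe of Il18r1 was well above background on no WT array and on all 5 Il10-/- arrays. Il18bp, the soluble protein that neutralises interleukin 18, rose as well, with levels of 3.69, 4.32, 3.26, 2.65 and 3.54 in WT and 6.02, 5.94, 4.97, 5.02 and 5.44 in Il10-/- and a difference of 1.98 ± 0.35 (SE, adjusted p = 0.0657). The signalling partners Il1rap and Il18rap had 2.08 and 1.49 with the groups apart but were not called, and Il1rap was highest on Il10-/- replicates 3 and 4, the arrays with hepatocyte transcripts. The cytokines themselves gave 0.80 for Il1b and -0.10 for Il18. Besides Il18r1 and Il18bp the called gene of this list was Il1r2, described above with the mature neutrophil genes. Of 22 genes listed 19 were measured and 18 tested, 3 were called, all higher, and the median was 0.59. Within slides 1 to 5 it was 0.09, 0.05, 0.54, 1.67 and 0.77, so that slides 1 and 2 were close to 0, and without WT replicates 4 and 5 0.29. Il18r1 was also the only call among 15 tested genes of the interleukin 12 and interferon-gamma axis (median 0.31).

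In the interleukin 17 axis, which links T cells at barriers to neutrophil recruitment, 2 of 16 tested genes were called. Il17re, the receptor chain of interleukin 17C, had levels of 2.41, 2.35, 2.29, 2.33 and 3.89 in WT and 4.61, 4.57, 5.31, 5.88 and 6.35 in Il10-/-. It was well above background on no WT array and on all 5 Il10-/- arrays, at least 3.05-fold higher (adjusted p = 0.0470). Cd163l1, a scavenger receptor known from gamma-delta T cells, had levels of 4.83, 4.63, 6.06, 5.12 and 4.17 in WT and 6.79, 6.75, 9.58, 9.84 and 9.82 in Il10-/-. Il10-/- replicates 3, 4 and 5 lay well above replicates 1 and 2, all 5 lay above WT, and the difference was 3.59 ± 0.67 (SE, adjusted p = 0.0778), or 2.82 without Il10-/- replicates 3 and 4 (limma adjusted p = 0.0815). The list median was 0.47, with 13 of 18 measured genes positive. On slides 1 and 2 it was 0.12 and 0.05, without WT replicates 4 and 5 0.24, and with normexp 0.17. The probes of Il17a, Il17f, Il23a and Il6 were below the background filter. Maf, a transcription factor of helper T cells, had levels of 4.89, 5.02, 5.01, 4.14 and 4.11 in WT and 5.66, 5.98, 5.85, 6.25 and 6.24 in Il10-/-, a difference of 1.36 ± 0.29 (SE, adjusted p = 0.0993). It was the only call among 28 measured and tested genes of activated, helper and regulatory T cells. Of these 21 were positive, with a median of 0.64, or 0.35 without WT replicates 4 and 5 and 0.31 with normexp. A further called feature is named on the array only as an Ensembl transcript, ENSMUST00000103558, of chromosome 13, with a difference of 1.59 (adjusted p = 0.0782), and a second probe of it gave 1.62 without being called. No gene was assigned to it.

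The pathway of interleukin 10 itself held no called gene. Of 21 genes listed 18 were measured, with a median of 0.45, and 15 were tested. Without WT replicates 4 and 5 the median was 0.14. The receptor chains gave 0.10 for Il10ra and 0.53 for Il10rb, and Stat3 gave 0.58. Its targets Nfil3 and Il4ra had the largest differences, 1.29 and 1.23 (adjusted p = 0.181 and 0.183), and Socs3, the feedback inhibitor of Stat3, had 1.03. For these 3 of the 15 tested the Il10-/- arrays lay wholly above the WT arrays, where 4.85% of all tested genes did. Of 30 measured genes of lipopolysaccharide sensing and NF-kB feedback 16 were tested, and of these Cd14 alone was called (median of the 30 0.39, or 0.07 without WT replicates 4 and 5). No gene was called among 29 tested TNF ligands and receptors (median 0.24, or 0.08 without those arrays), where Tnfrsf25, a death receptor of T cells, had 1.32 and Fasl, the death ligand of cytotoxic cells, 1.30. Nor was any among 32 tested chemokines and chemokine receptors. Their median of 0.38 was -0.11 and -0.08 on slides 1 and 2, 0.19 to 0.54 with 1 array left out and 0.07 without WT replicates 4 and 5.

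**Figure D3:**
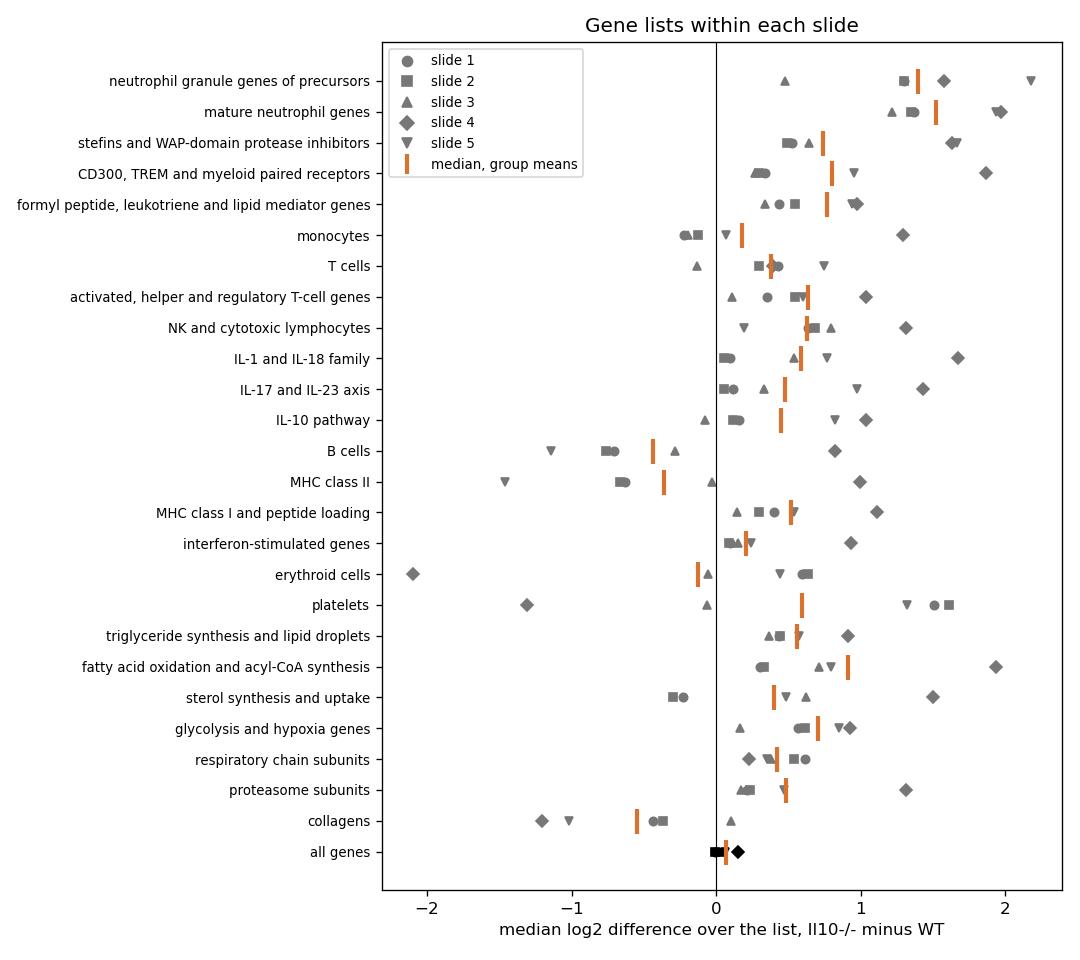
Median log2 difference (horizontal, Il10-/- minus WT) over the measured genes of 25 lists and over all genes, within each of the 5 slides (grey or black shapes) and for the group means (orange bar). The 5 shapes of the neutrophil lists lie right of 0, those of B cells and MHC class II fall on both sides because slide 4 is opposite to the others, and all genes lie close to 0.

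The lists of T, NK and B cells held 1 called gene. Of 25 measured T-cell genes 21 were tested and none was called, with a median of 0.38, or 0.13 without WT replicates 4 and 5. Cd3e did not pass the variation filter (-0.03), and Cd3d and Cd3g, further chains of the T-cell receptor complex, had 0.58 and 0.66 with overlapping groups. The largest differences were those of Thy1 (0.91, adjusted p = 0.2) and of the receptor kinase Zap70 (0.83, adjusted p = 0.188). Among 29 measured genes of NK and cytotoxic lymphocytes, of which 26 were tested, 25 were positive with a median of 0.63, and it was above 0 on all 5 slides (0.63, 0.69, 0.79, 1.31 and 0.19). Klra17, a member of the Ly49 receptor family, was the only call, with levels of 4.03, 4.04, 3.34, 2.39 and 4.01 in WT and 5.72, 5.69, 4.97, 5.35 and 6.16 in Il10-/- and a difference of 2.02 ± 0.37 (SE, adjusted p = 0.0743). Klra17 was highest on Il10-/- replicate 5. The mean level of the NK and cytotoxic list was 6.52 on that array, against 7.23 to 7.43 on the other Il10-/- arrays. The call therefore does not stand for the list. Klra17 was also the only call of 13 tested Ly49 genes, which are close copies of each other (median 0.86). The defining NK genes Ncr1, Klrb1c and Klrd1 had 0.11, 0.41 and 0.72, and none was called.

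None of 22 tested B-cell genes was called, though of 23 measured 22 had negative differences, with a median of -0.44. Within slides 1 to 5 the median was -0.71, -0.76, -0.29, 0.82 and -1.14, so that slide 4, which holds WT replicate 4 and Il10-/- replicate 4, was opposite to the other 4. Cr2, the complement receptor of mature B cells, was the only gene of the list with the groups apart, where 1.83% of all genes tested with 1 probe each lay wholly below, with levels of 9.46, 9.55, 9.52, 9.60 and 10.19 in WT and 8.75, 8.80, 9.14, 9.18 and 8.49 in Il10-/- (difference -0.79 ± 0.26 SE, adjusted p = 0.188). The surface markers Ms4a1 and Cd79a had -0.46 and -0.21, the second turning positive with array-median scaling and with normexp, and the low-affinity IgE receptor Fcer2a -0.81 (adjusted p = 0.258). Without WT replicates 4 and 5 the median of the list was -0.73, and with normexp background correction -0.05. MHC class II genes, which B cells and other presenting cells express, had a median of -0.36 over 11 measured genes with 9 negative, none of 10 tested called, again with slide 4 opposite at 1.00, and 0.10 with normexp. Their transactivator Ciita had -0.69 (adjusted p = 0.231). Of 14 measured plasma cell genes 11 were tested and none was called, with a median of 0.05 that was -0.05 without WT replicates 4 and 5. The defining Jchain and Mzb1 had -0.57 and -0.15, and Sdc1 did not pass the background filter.

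No gene was called among 20 tested of MHC class I and peptide loading, and of 25 measured 23 were positive with a median of 0.52, or 0.25 without WT replicates 4 and 5. Of 44 measured interferon-stimulated genes 41 were tested, none was called, and 34 were positive with a median of 0.21, or 0.06 without these arrays. Their largest differences were 1.25 for the secreted glycoprotein Lgals3bp and 0.95 for the GTPase Gbp2 (adjusted p = 0.183 and 0.222). Ifitm1, a membrane protein that blocks virus entry and is also abundant in neutrophils, rose by both of its probes. The brighter one had levels of 10.50, 10.49, 10.53, 9.41 and 9.05 in WT and 12.68, 12.44, 12.86, 11.72 and 13.75 in Il10-/-, a difference of 2.70 ± 0.43 (SE, adjusted p = 0.0470), and the other gave 2.43. It was the only call of 5 tested Ifitm genes, and the median of the 6 measured was 0.92.

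Red cell and platelet genes varied widely within the groups. Of 33 measured erythroid genes 32 were tested and none was called by its brightest probe, and the median difference of -0.12 turned to 0.18 with array-median scaling, 0.33 with normexp, 0.27 without Il10-/- replicates 3 and 4 and 0.22 without WT replicates 4 and 5. Within slides 1 to 5 it was 0.59, 0.64, -0.05, -2.10 and 0.44. A dimmer probe of Epb42 (Epb4.2 on the array), which encodes a protein of the red cell membrane, was called at 1.55 (adjusted p = 0.0949) with overlapping groups, while the brighter probe counted in the list gave -0.50. The defining genes Hba-a1 and Slc4a1 had -0.47 and 0.19, neither called. The mean level of the list was 10.55, 10.56, 10.62, 12.05 and 11.16 in WT and 11.30, 11.31, 10.54, 10.06 and 11.64 in Il10-/-, with WT replicate 4 highest and Il10-/- replicate 4 lowest. Of 26 platelet genes, all tested and none called, 25 had positive differences of the means with a median of 0.59, or 1.37 without Il10-/- replicates 3 and 4, yet within slides 1 to 5 the median was 1.5, 1.61, -0.07, -1.31 and 1.32. The defining Itga2b, Pf4 and Gp9 had 0.65, 0.77 and 0.39. Gp1bb, a chain of the von Willebrand factor receptor, had levels of 9.84, 10.15, 9.74, 10.13 and 10.20 in WT and 12.15, 12.43, 9.84, 8.96 and 11.90 in Il10-/-. Il10-/- replicates 1, 2 and 5 were above every WT array, and replicates 3 and 4, the arrays with hepatocyte transcripts, were not (adjusted p = 0.334). Among 15 tested genes of eosinophils, basophils and mast cells Hdc alone was called. The median of 0.12 had no settled sign, with -0.12 to 0.23 when 1 array was left out, -0.07 without Il10-/- replicates 3 and 4 and -0.16 without WT replicates 4 and 5, while the defining Ccr3 and Siglecf had -1.10 and -0.23 and Mcpt8 did not pass the background filter. Steap4 was the only call among 26 tested genes of heme synthesis and iron (median 0.06, and -0.06 to 0.20 with 1 array left out).

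**Figure D4:**
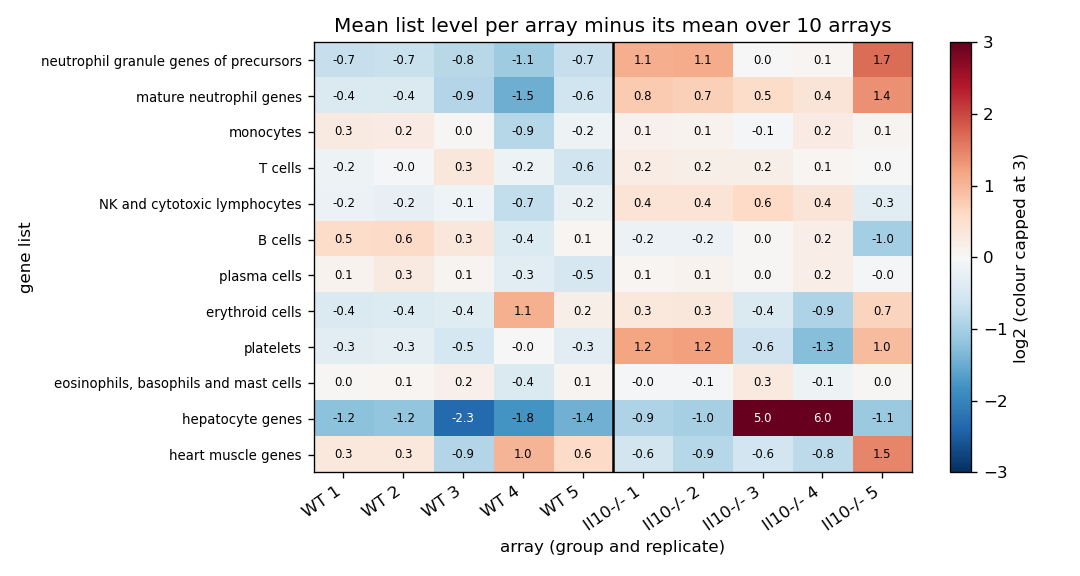
Mean level of 12 gene lists (rows) on each of the 10 arrays (columns), minus the mean of the list over the 10 arrays, in log2 units with the colour capped at 3. The neutrophil rows are at or above 0 on all Il10-/- arrays and below 0 on all WT arrays, the hepatocyte row is high on Il10-/- replicates 3 and 4 alone, and the platelet row is lowest on the same 2 arrays.

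Enzymes of lipid synthesis and oxidation held 4 called genes. Gpd1, which makes glycerol 3-phosphate for triglycerides, had levels of 4.36, 4.30, 3.83, 4.70 and 5.56 in WT and 8.39, 8.29, 9.04, 9.99 and 7.21 in Il10-/-. Every Il10-/- array was above every WT array, replicate 5 came closest, and the difference was 4.03 ± 0.48 (SE, adjusted p = 0.0113). Dgat2, which completes triglyceride synthesis, had levels of 7.36, 7.15, 7.19, 6.74 and 7.69 in WT and 8.40, 8.39, 10.08, 10.15 and 9.08 in Il10-/-, a difference of 1.99 ± 0.40 (SE, adjusted p = 0.0889). Acsbg1, an acyl-CoA synthetase, had levels of 5.05, 5.02, 5.51, 4.94 and 3.88 in WT and 6.52, 6.55, 7.54, 7.89 and 8.06 in Il10-/-, a difference of 2.43 ± 0.40 (SE, adjusted p = 0.0530). Tm7sf2, a sterol reductase of cholesterol synthesis, had levels of 5.34, 5.71, 4.98, 5.19 and 5.35 in WT and 6.70, 6.74, 7.99, 8.75 and 6.64 in Il10-/-, a difference of 2.05 ± 0.42 (SE, adjusted p = 0.0889). A second, dimmer probe of Tm7sf2 gave 1.09 with overlapping groups. The highest levels of Gpd1, Dgat2 and Tm7sf2 were those of Il10-/- replicates 3 and 4, the arrays with hepatocyte transcripts. Without these 2 arrays the differences of Gpd1, Dgat2, Acsbg1 and Tm7sf2 were 3.41, 1.39, 2.16 and 1.38, with limma adjusted p of 0.0157, 0.0633, 0.0533 and 0.0457.

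By list, 2 of 33 tested genes of triglyceride synthesis and lipid droplets were called, 1 of 33 of fatty acid oxidation and 1 of 23 of sterol synthesis, with medians of 0.56, 0.91 and 0.40. Of 35 measured genes of fatty acid oxidation 31 were positive, where 54.6% of all measured genes were. For 15 of the 33 tested the Il10-/- arrays lay wholly above the WT arrays, where 4.85% of all tested genes did. Among these were Hadh, an enzyme of mitochondrial oxidation (1.62), and Cpt1a, which passes long-chain fatty acids into mitochondria (1.01), neither of them called. Within slides 1 to 5 the median of this list was 0.31, 0.33, 0.72, 1.94 and 0.79, and without the arrays with hepatocyte transcripts 0.60. The median of the sterol list was 0.05 without them. Without WT replicates 4 and 5 the oxidation and sterol medians were 0.58 and 0.07. Of 31 measured genes of glycolysis and hypoxia 23 were tested, none was called, and 28 were positive with a median of 0.71, or 0.47 without WT replicates 4 and 5. Arg2, an arginase, had 1.24. The other arginase, Arg1, was well above background on no WT array and high on Il10-/- replicates 3 and 4 alone. The parts of hepatocyte transcripts and of neutrophil content in these values were not tested.

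Aldh1a7, an aldehyde dehydrogenase, had levels of 3.57, 3.13, 1.90, 2.70 and 2.40 in WT and 5.54, 5.34, 6.65, 7.52 and 4.72 in Il10-/-. It was near background in WT, with 1 of 5 arrays well above it, and the difference was 3.21 ± 0.51 (SE, adjusted p = 0.0470). Il10-/- replicates 3 and 4 were the highest, and without them the difference was 2.46 (limma adjusted p = 0.0298). It was the only call of 19 tested aldehyde dehydrogenases and quinone or cytochrome b5 reductases (median 0.77, or 0.46 without WT replicates 4 and 5). Col18a1, the collagen from which endostatin is cut, had levels of 2.84, 2.18, 2.21, 2.28 and 4.94 in WT and 5.95, 5.79, 7.81, 8.72 and 5.64 in Il10-/-. Its probe was well above background on no WT array, which places Il10-/- at least 7.76-fold higher (adjusted p = 0.0624), and a second probe gave 4.01 with 1 of 5 WT arrays well above background. Both probes were highest on Il10-/- replicates 3 and 4, and without these arrays the second gave 3.21 (limma adjusted p = 0.0158). Of 20 tested collagens no other was called. Of 21 measured 17 were negative, with a median of -0.55, or -0.14 without WT replicates 4 and 5. Only 3 of the 21 were well above background on all 10 arrays. The mean level of the list was highest on WT replicates 4 and 5, at 4.57 and 5.18. The negative median therefore rests mostly on dim probes. Rnd1, a small GTPase, had levels of 6.66, 6.35, 6.34, 5.69 and 6.32 in WT and 8.13, 8.17, 7.89, 7.52 and 8.69 in Il10-/-, a difference of 1.81 ± 0.29 (SE, adjusted p = 0.0483). Other called genes outside the lists included Aqp3, a channel for water and glycerol (2.18), F10, coagulation factor X (1.40), and Ifnlr1, a chain of the receptor of interferon lambda (2.36), named after their values were seen. Their adjusted p were 0.0613, 0.0663 and 0.0894. The called probe of Map6 was higher by 2.29, but its second probe, well above background on all 10 arrays, gave -0.40. Gpc3 and Mtus2 were called from probes well above background on no WT array and all 5 Il10-/- arrays, at least 1.51-fold and 1.53-fold higher, and their second probes were well above background on no array.

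**Figure D5:**
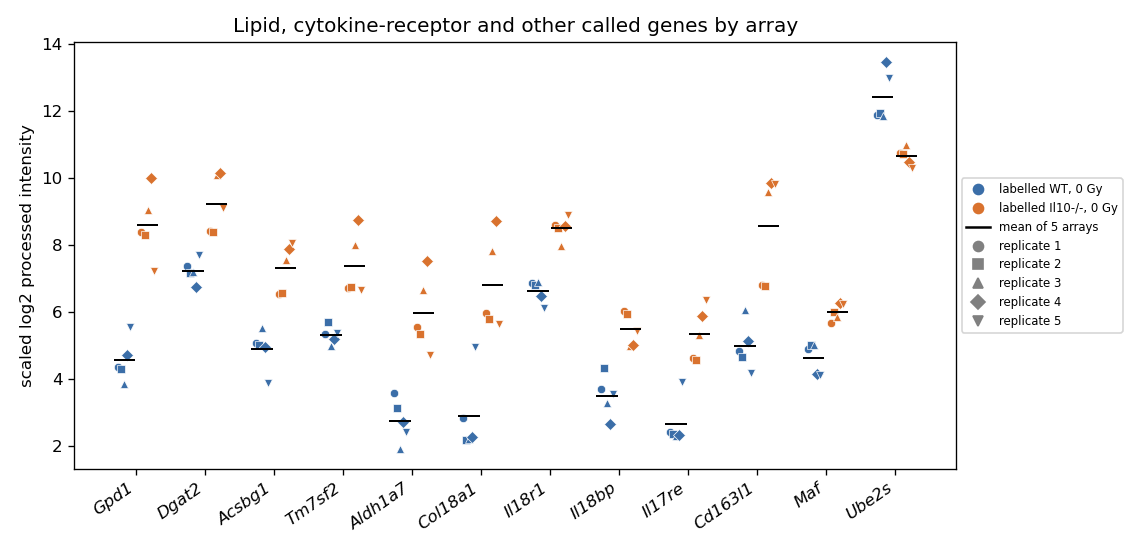
Scaled log2 intensity (vertical) of 12 called genes outside the neutrophil lists on the 5 WT (blue) and 5 Il10-/- (orange) arrays, with the marker shape giving the replicate and a bar the mean of 5 arrays. Il10-/- replicates 3 and 4 are the highest for Gpd1, Dgat2, Tm7sf2, Aldh1a7 and Col18a1, and Ube2s is the only gene shown that is lower in Il10-/-.

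Lists of basic cell processes held 1 called gene. Of 78 measured respiratory chain subunits 60 were tested and none was called. Of the 78, 73 were positive, where 54.6% of all measured genes were. Their median was 0.42, and 0.62, 0.54, 0.38, 0.23 and 0.35 within slides 1 to 5. The Il10-/- arrays lay wholly above for 12 of the 60 tested, where 4.85% of all tested genes did. Of 31 measured proteasome subunits only 13 varied enough to be tested, and none of these was called. Of the 31, 30 were positive (median 0.48, with 1.32 on slide 4 and 0.23 without WT replicates 4 and 5). Of 77 measured ribosomal protein genes 6 were tested, of 30 aminoacyl-tRNA synthetases and Atf4 targets 20, and of 40 clustered histone genes 23. None of those tested was called, and the medians of the measured genes were 0.15, 0.38 and 0.10. Of 38 measured genes of the cell cycle and DNA replication, 33 of them tested, the median was 0.00, and 0.30 with array-median scaling, and only Ube2s was called. Lists of acute-phase, glutathione and other-tissue genes, not followed further here, held calls for 5 of 26 tested acute-phase genes, 2 of 41 glutathione genes and none of 35 hepatocyte or 17 heart muscle genes, with medians of 2.60, 0.77, 3.46 and -0.40. Lcn2 and Lrg1, described above with the neutrophil genes, are among the 5 acute-phase calls.

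Ube2s, a ubiquitin-conjugating enzyme that works with the anaphase-promoting complex, was the only called gene that fell and was well above background on all 10 arrays. Its levels were 11.87, 11.92, 11.83, 13.46 and 12.96 in WT and 10.74, 10.72, 10.99, 10.47 and 10.30 in Il10-/-. WT replicates 4 and 5, the arrays of low detection, were the highest, and the difference was -1.76 ± 0.36 (SE, adjusted p = 0.0889). Without those 2 arrays it was -1.23 (limma adjusted p = 0.0968). Whichever single array was left out, Ube2s was not called. Its probe is placed on mm9 chr9:56286126-56286185. AF466698 was well above background on 1 WT array and on no Il10-/- array, with a difference of -1.91 (adjusted p = 0.0778). Most of its values were thus near background in both groups and give no bound on the fold. Gm13570 and Atp10b, a phospholipid-transporting ATPase, were each well above background on 4 WT arrays and on 1 and 2 Il10-/- arrays, with differences of -1.44 and -1.78 (adjusted p = 0.0894 and 0.0999). 4930548F15Rik was well above background on no array. With the slide as a replicate block none of the 6 lower genes was called.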

How the data were processed

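Whole-blood RNA was hybridised to one-colour Agilent mouse 4x44K arrays. The authors extracted intensity values with Agilent Feature Extraction (10.7 per the labels, 12.0.2.2 per the file headers), which subtracts background, and the deposited series table holds log2 values of the same arrays after median scaling. Here log2 processed intensities of 39429 non-control probes were shifted by each array's median distance from Il10-/- replicate 3, over spots unmarked on both. Following the study's methods, probes flagged as outlying or as near background on at least 25% of the 20 arrays were dropped, and a probe was tested only if it lay at least 1.5-fold from its median on 20% or more of them. The 10 unirradiated arrays, grouped by title, were compared with limma 3.58.1 in R 4.3.3, with calls at an unadjusted p below 0.001 and a false discovery rate (Benjamini-Hochberg) under 10%. The script was tested on simulated data. A RefSeq accession was given for 29785 probes, and 28330 of them found a current symbol.

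In the lists a gene stood for its brightest probe among those above background. The 46 lists, their members and the comparison were chosen with earlier results of these data known. Genes were named by rule: Il10, the 12 called genes of smallest p in each direction outside acute-phase, glutathione, hepatocyte and heart muscle lists, up to 4 called genes of each list or else its 2 largest differences, and 3 defining markers of each cell type. Other genes were named after their values were seen, and a few that the rule named are not reported here. Labels do not say whether RNA was extracted or labelled together, so p-values measure the spread between these arrays, and the number of arrays limits the precision. The slide, which is also the scan and the replicate number, was examined because it holds 1 array of each group. Alternatives covered scaling, background correction, filters, the slide block, array weights and arrays left out.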

Additional observations from a re-analysis of the deposited data

Results flagged for a closer look

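Within each group of 5 arrays, the most extreme level was set against the rest as its gap to the nearest array divided by the range of the group, and 24 of 228 sets of 5 values had a ratio above Dixon's critical value. Chance flags about 1 in 20 such sets. The ratios stand in parentheses, and no explanation was tested. WT replicate 4 was the lowest array of its group for Ifitm1 (0.952), Lrg1 (0.871), Clec4e (0.775), Nfil3 (0.836), Fcer2a (0.787), Csf1r (0.72) and Ccr2 (0.829). The ratio for Ifitm1 is that of its probe with a difference of 2.43, whose levels are not listed above. WT replicate 5 was the highest array of its group for Il17re (0.924), Cr2 (0.81) and Col18a1 (0.761). Il10-/- replicate 3 was the lowest array of its group for Fcgr4 (0.733), Shmt2 (0.924) and Ccr2 (0.712). Il10-/- replicate 4 was the highest array of its group for Zap70 (0.737) and Creld2 (0.749). WT replicate 3 was the highest array of its group for Cxcl2 (0.755). Il10-/- replicate 5 was the lowest array of its group for H2-Ob (0.734), Klrd1 (0.782) and Mzb1 (0.887). WT replicate 5 was the lowest array of its group for Lgals3bp (0.829). WT replicate 3 was the lowest array of its group for Myh6 (0.743). WT replicate 4 was the highest array of its group for Slc4a1 (0.729). The SD between repeated spots was highest on WT replicate 5 (0.788), at 0.336 with 0.143 on the next array, and the mean level of heart muscle genes was highest on Il10-/- replicate 5 (0.866), at 6.27 with 4.25 on the next.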

How the results depend on the processing

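The count of 75 called genes, 69 higher and 6 lower, depended on the setting. In every setting each of the 77 features that could be tested kept its direction, with 49 of them tested under normexp. For 76 of the 77 the groups lay wholly apart. Fits that only left out, averaged or weighted arrays could therefore not turn their direction. Called genes (higher and lower) were 142 (142 and 0) with array-median scaling, 41 (39 and 2) with 75th percentile scaling, 23 (22 and 1) with quantile normalization, 192 (142 and 50) with all 4 groups in one fit, 30 (30 and 0) with the slide as a replicate block, 137 (125 and 12) for features well above background on all 5 arrays of a group, 14 (14 and 0) at a rate under 5% alone and 1739 (1199 and 542) with limma array weights. They were 346 (339 and 7) with hepatocyte and heart muscle levels as covariates, 1 (1 and 0) with replicates 1 and 2 averaged, and 11 (11 and 0) with that averaging and the slide block. With normexp background correction limma called 0 (0 and 0) of 9564 features, with 126 at an unadjusted p under 0.05. Chosen after seeing the data were the averaging with the block, the fit without Il10-/- replicates 3 and 4, with 286 (280 and 6), and the fit without WT replicates 4 and 5, with 36 (33 and 3). The median difference over tested features was 0.36 with array-median scaling, 0.11 with quantile normalization and 0.45 with normexp, against -0.02. For features well above background on all 5 arrays of either group it was 0.14. That filter admits features through the group where they are high, and detection was low on WT replicates 4 and 5. The value therefore does not show that brighter features leaned upward. Of the 46 gene list medians, 5 changed sign and 30 more moved by over 1.5 times without WT replicates 4 and 5, with 36 closer to 0, and 3 and 13 did so without Il10-/- replicates 3 and 4.

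Leaving out 1 array gave 4 to 79 genes, of which 4 to 73 were higher and 0 to 6 lower: 15, 4, 13, 9 and 79 without WT replicates 1 to 5, and 10, 16, 50, 39 and 14 without Il10-/- replicates 1 to 5. Wfdc21, Gpd1 and Chil1 were called in all 10 of these fits. S100a8, Cd14 and Dgat2 were called in only 1 of them, and Maf, Tm7sf2, Ube2s and Atp10b in 0. The series table gave 56 genes and the data without the 1.5-fold filter 69. Deviations of WT and Il10-/- arrays on one slide correlated at 0.07, 0.18, -0.04, -0.33 and 0.11 over 16419 features, so replicate numbers did not pair the samples.

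Uncalled genes changed direction as follows. With normexp the differences were 0.095 for H2-Ob, 0.009 for Hbb-b1, 0.637 for Cd79a and 0.244 for Mzb1, and with array-median scaling 0.102 for Cd79a, 0.153 for Mzb1 and 0.078 for Siglecf. With array weights they were -0.239 for H2-Q10 and -0.14 for Cx3cr1, and with tissue covariates -0.508 for H2-Q10, -0.308 for Ncr1 and -0.048 for Klrb1c. Without Il10-/- replicates 3 and 4 they were -0.251 for H2-Q10 and -0.175 for Ncr1, and without WT replicates 4 and 5 -0.213 for Cx3cr1 and 0.085 for Hba-a1. Slc4a1 had -0.051 with replicates 1 and 2 averaged, with or without the block, and -0.06 without Il10-/- replicate 5, where Mzb1 had 0.048. Without WT replicate 4 Cx3cr1 had -0.043 and Ncr1 -0.058, and without Il10-/- replicate 3 Ncr1 had -0.033. With 1 array left out these genes ranged from -0.043 to 0.53 (Cx3cr1), -0.058 to 0.422 (Ncr1), -0.348 to 0.048 (Mzb1) and -0.06 to 0.575 (Slc4a1). The cause of these changes was not tested. Dim probes on WT replicates 4 and 5 limit what can be seen of low transcripts.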
